A study of Homo sapiens with 9 samples.

Results

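The 33 interferon-stimulated genes and RNA sensors described here were taken by symbol from a list of RNA-sensing proteins, the transcription factors of the interferon response and the antiviral proteins that interferon induces. Each symbol matched 1 gene of the 60671 in the deposited tables, and 32 of the 33 had enough reads to be tested. The RNA-seq libraries came from the immortalised human chondrocyte line C28/I2, with 3 libraries in each of the groups Control, Scrambled and CA2 shRNA. The CA2 shRNA cells were transduced with a short hairpin RNA against carbonic anhydrase 2 (CA2). What the Scrambled construct is, whether the Control cells were transduced and how many hairpin sequences were used is not given in the sources used here. The question asked of these genes was whether the hairpin or the Scrambled construct induced them. In the CA2 shRNA cells the hairpin and the lower CA2 level came together, so that their effects cannot be told apart. The labels do not tie replicates to separate cultures, and the p-values then measure only a spread between libraries that may be technical. RNA came from whole cultures, so that fewer expressing cells and less RNA per cell cannot be told apart.

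Cells recognise viral RNA, and at times hairpin RNA delivered from outside, by sensors that bind double-stranded RNA. The helicases RIG-I (gene RIGI) and MDA5 (IFIH1) then signal through the mitochondrial adaptor MAVS to the transcription factors IRF3 and IRF7, which switch on type I interferon, while the kinase PKR (EIF2AK2) halts translation. Secreted interferon acts back on the cells through the JAK kinases and a complex that holds STAT2 and IRF9 and binds the interferon-stimulated response element in the promoters of the antiviral genes.

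Promoter sequences are shown first because the response element is the site through which interferon acts on such genes. RefSeq promoters of GRCh38.p14, running from 250 bases before to 50 bases after a start, were found for 26 of the 33 genes, and not for OAS2, OASL, IRF3, IRF7, IFIT2, USP18 and MX2. The motif searched was GAAA, any 2 bases and GAAA on either strand (TTTC, any 2 bases and TTTC on the reverse), with overlapping matches counted. Other spacings were not counted. It was present in at least 1 promoter of 18 of the 26 genes (69.2%). Counted per promoter, 3.57% of all 35116 promoters in the table held it. The units differ, because a gene with several promoters, such as MX1 with 3, counts when any of them matches. Among genes that rose in CA2 shRNA cells against Scrambled, SAMD9 and IFI6 held a match, and both promoters are printed whole, read along the gene's strand with the matches in capitals. The SAMD9 promoter lies at chr7:93117930-93118229 on the minus strand and its match begins 136 bases before the start. The IFI6 promoter lies at chr1:27672143-27672442 on the minus strand, with 3 matches that begin 156, 115 and 93 bases before the start.
SAMD9: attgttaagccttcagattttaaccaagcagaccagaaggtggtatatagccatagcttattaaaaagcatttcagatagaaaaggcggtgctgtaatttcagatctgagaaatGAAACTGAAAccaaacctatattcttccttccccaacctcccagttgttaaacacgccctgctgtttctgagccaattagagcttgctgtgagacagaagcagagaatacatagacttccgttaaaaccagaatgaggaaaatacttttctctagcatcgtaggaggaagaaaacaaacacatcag
IFI6: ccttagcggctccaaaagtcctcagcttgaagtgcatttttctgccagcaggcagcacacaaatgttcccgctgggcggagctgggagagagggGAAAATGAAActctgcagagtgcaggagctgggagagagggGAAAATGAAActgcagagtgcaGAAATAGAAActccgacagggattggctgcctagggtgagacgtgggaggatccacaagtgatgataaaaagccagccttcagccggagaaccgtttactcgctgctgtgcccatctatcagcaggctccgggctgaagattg

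The motif was also present in genes that were not called against Scrambled. Of the genes with a promoter, 16 of the 21 not called (76.2%, the untested IFI44L among them) and 2 of the 5 that rose (40%) held a match. OASL, IFIT2 and USP18 also rose but had no promoter entry, so the share of 40% leaves them out. OASL and IFIT2 had the largest changes of the genes that rose. Windows of 60 bases around a match are given for 4 of those other genes, picked after their values were seen because they cover sensors and abundant effectors that did not pass. They are ISG15 (chr1:1013359-1013418, plus strand, with 2 overlapping matches), the RNA sensor IFIH1 (chr2:162318671-162318730, minus strand), EIF2AK2 (chr2:37156952-37157011, minus strand) and OAS3 (chr12:112938437-112938496, plus strand). ISG20, which rose against Control only, is shown beside them (chr15:88638922-88638981, plus strand).
ISG15: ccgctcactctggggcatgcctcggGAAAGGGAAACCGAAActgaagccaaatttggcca
IFIH1: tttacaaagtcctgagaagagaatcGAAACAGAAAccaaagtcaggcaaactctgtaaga
EIF2AK2: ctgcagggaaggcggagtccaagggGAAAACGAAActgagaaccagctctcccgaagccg
OAS3: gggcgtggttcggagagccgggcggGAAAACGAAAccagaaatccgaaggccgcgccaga
ISG20: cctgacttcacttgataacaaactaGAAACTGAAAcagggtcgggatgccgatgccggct

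IRF1 and IFI35, which also rose against Scrambled, held no match to the searched form of the response element in the promoter. Each held TTC, any 3 bases and GAA, the letters of the gamma-activated site through which interferon-gamma acts. This motif reads the same on both strands. These letters were in a promoter of 8 of the 26 genes (30.8%), where any promoter of a gene could match. Counted per promoter, 7.66% of all promoters held them, so the units differ here too. By gene, 2 of the 5 that rose (40%) and 6 of the 21 others (28.6%) held them. STAT2, which also rose, held neither motif there. The IRF1 window is chr5:132490863-132490922 on the minus strand, with the match 124 bases before the start. The IFI35 window is chr17:43006737-43006796 on the plus strand, with the match 22 bases before the start. It also holds 2 copies of GAAA set closer together than the search allowed. Both windows were added after the values were seen.
IRF1: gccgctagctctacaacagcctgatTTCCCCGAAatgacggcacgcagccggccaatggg
IFI35: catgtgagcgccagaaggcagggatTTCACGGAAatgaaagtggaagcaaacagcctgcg

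Totals ran from 16994368 to 34261244 counts per library. Mitochondrial genes took 4.06% of the counts in Control 3 and 4.08% in Scrambled 2, against 5.55% to 6.86% in the other 7 libraries, and where a call of a named gene changes without these libraries it is given with and without them. By chi-square per gene, which is lower for more similar libraries, Control 3 was closest to Scrambled 2 (3.38), against 7.21 and 12.5 to the other Control libraries, and Scrambled 2 stood at 15.3 and 17.0 from the other Scrambled libraries. Control 1 was also closer to Scrambled 3 (3.59) than to any library of its own group (4.32 at the lowest). CA2 itself, the target of the hairpin, was at 2.31, 2.00 and 1.94 CPM (counts over the library total, scaled by TMM factors) in the Control libraries, 1.82, 1.96 and 2.06 in the Scrambled libraries, and 1.4, 0.905 and 1.1 in the CA2 shRNA libraries. Against Scrambled it fell by 0.77 on the log2 scale (adjusted p = 0.0276) and by 0.86 against Control (adjusted p = 0.0159). Of 7 tested chondrocyte markers 1 rose and 1 fell in each CA2 shRNA comparison. Over all tested genes 8.02% rose and 8.88% fell against Scrambled, and 6.41% rose and 8.26% fell against Control. SOX9 lay between 81.7 and 97.0 CPM in the controls and between 103 and 105 in CA2 shRNA (adjusted p = 0.0364 against Scrambled and 0.0381 against Control), and COMP between 1.95 and 2.77 CPM in the controls and between 1.03 and 1.55 in CA2 shRNA (adjusted p = 0.0161 and 0.0215). SOX9 rose by 0.20 on the log2 scale in both, and COMP fell by 0.86 and 0.83. Without CA2 shRNA 2 neither marker passed against Scrambled (0.121 and 0.0725) or Control (0.138 and 0.0908). SOX9 was also lost against Scrambled with upper-quartile factors (adjusted p = 0.057) and without Control 2, Scrambled 1, Scrambled 3 or CA2 shRNA 1. Against Control SOX9 was lost without Control 1, Control 2, Scrambled 3 or CA2 shRNA 1, and COMP without Control 1, Control 3 or CA2 shRNA 3. Their part in the results was not tested. COL2A1 lay between 1.45 and 2.23 CPM, ACAN between 0.402 and 1.17 CPM, and COL9A1 was at 0 in every library. The 16 immune cell markers summed to 4.55 to 6.19 CPM in Control, 4.54 to 6.40 in Scrambled and 4.77 to 6.59 in CA2 shRNA, with MS4A1, CLEC4C, LILRA4 and FCGR3A at 0 throughout.

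In Control cells the 33 genes spanned a wide range of levels. On the deposited RPKM scale, which divides by gene length, 12 genes had a mean below 1, 14 lay between 1 and 10 and 7 were above 10, with a median of 1.64 RPKM. The most abundant was BST2, the membrane tether that holds budding virus particles, at 57.6 RPKM. It was followed by OAS3 at 23.8, IRF3 at 14.9, IFI35 at 14.2, IFI6 at 13.6, EIF2AK2 at 13.6 and ISG15 at 13.0 RPKM. At the other end stood IFI44L at 0.00792, RSAD2 at 0.177, IFI27 at 0.300, OASL at 0.366 and IFIH1 at 0.388 RPKM. The genes that later stood highest in CA2 shRNA cells by fold, OASL and IFIT2, were therefore among the low ones. IFI44L had between 0 and 6 counts in any library and was left out of the tests.

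No gene of the 33 passed the test between Scrambled and Control cells. None of the 32 tested genes passed an adjusted p of 0.05 in edgeR's quasi-likelihood test, as none of all 19812 tested genes did (0%). At an unadjusted p below 0.05 stood 3 of the 32 genes, STAT2, SAMD9 and IFI27, and 550 of all genes. DESeq2 called 0 of the 33 genes and 1 gene overall. The log2 changes of the 32 genes were split into 16 above 0 and 16 below 0, with a median of -0.00 and a range from -0.34 to 0.59. The median over all tested genes was 0.00.

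The intervals show what size of difference between Scrambled and Control cells the data leave room for. Whether the Control cells were transduced is not given, so the intervals do not bound induction by the construct itself. The 95% interval of the change ended below a 2-fold rise for 31 of the 32 genes. The exception was IFI27, a mitochondrial protein that interferon induces strongly, whose interval ran from 0.11 to 1.06 on the log2 scale. IFI27 was at 1.26, 1.46 and 1.03 CPM in the Control libraries, 1.78, 1.77 and 2.00 in the Scrambled libraries, and 1.20, 1.39 and 1.39 in the CA2 shRNA libraries. The 3 Scrambled libraries were above all 3 of either other group, and the log2 change of 0.59 against Control did not pass the test (unadjusted p = 0.0184, adjusted p = 0.9997). IFI27 was the 1 gene of the 32 with non-overlapping groups in that direction (3.66% of all genes), and IFIH1 the 1 in the other (3.14% of all genes).

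In CA2 shRNA cells 8 of the 32 tested genes rose against Scrambled and none fell. They were OASL, IFIT2, SAMD9, USP18, IFI6, IRF1, STAT2 and IFI35, and the rises ran from 0.23 to 1.61 on the log2 scale. The 8 are 25% of the tested genes, against 8.02% of all 19812 genes that rose, and the absence of falls stands against 8.88% of all genes that fell. In either direction 16.9% of all genes were called. The median log2 change of the 32 genes was 0.17, next to -0.03 for all tested genes, and 25 of the 32 lay above 0. By groups that did not overlap, 15 of the 32 were higher (15.2% of all genes) and 1 was lower (17.2% of all genes).

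Against Control the count was again 8 higher and 0 lower of 32, next to 6.41% of all genes higher and 8.26% lower, or 14.7% in either direction. SAMD9 was not among them and ISG20 was. The CA2 shRNA libraries enter both comparisons, so the values of each gene are given side by side and the second count is not separate evidence. The median log2 change was 0.14, against -0.00 over all tested genes, and 28 of the 32 lay above 0. By groups that did not overlap, 14 of the 32 were higher (15.8% of all genes) and 2 were lower (17.2% of all genes). Summed over all 33 genes, Control libraries held 773, 807 and 816 CPM, Scrambled libraries 769, 802 and 782 CPM, and CA2 shRNA libraries 862, 871 and 879 CPM. All 3 CA2 shRNA sums lay above all 6 control sums, and EIF2AK2 and OAS3 make up the largest share of each.

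The sizes were small for all but 1 gene. OASL alone changed by 2-fold or more in either comparison. Against Scrambled 26 of the 32 log2 changes lay within 0.5 of 0, and against Control 28 did. The 95% interval ended below a 2-fold rise for 29 of the 32 genes in each comparison.

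Over all tested genes 8.02% rose against Scrambled and 6.41% against Control. The counts of the subgroups below, each of at most 8 genes, stand beside these shares. The sensors and the enzymes that act on double-stranded RNA gave 1 called gene among 8 (12.5%) in each CA2 shRNA comparison. That gene was OASL, an inactive relative of the oligoadenylate synthetases that binds RIG-I and heightens its signalling. OASL (chr12:121019111-121039242, minus strand) was at 0.840, 1.76 and 1.29 CPM in the Control libraries, 1.33, 1.26 and 0.846 in the Scrambled libraries, and 3.64, 3.20 and 3.51 in the CA2 shRNA libraries, from 20 to 96 counts per library. Every CA2 shRNA library lay well above every control library. Mean levels were 1.30 ± 0.458, 1.14 ± 0.262 and 3.45 ± 0.229 CPM (SD, n = 3). The log2 change was 1.61 ± 0.251 (SE) against Scrambled (adjusted p = 0.000202, 3.04-fold) and 1.43 ± 0.248 against Control (adjusted p = 0.000552, 2.69-fold), and it passed under all 18 alternatives in both.

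The 3 sensors proper did not pass. RIGI, which detects RNA with a 5′ triphosphate, was at 6.18, 6.34 and 5.75 CPM in the Control libraries, 4.13, 6.76 and 5.51 in the Scrambled libraries, and 6.74, 6.46 and 6.40 in the CA2 shRNA libraries, from 93 to 196 counts. Scrambled 2 was the highest of all 9 libraries and Scrambled 1 the lowest, and the change was 0.25 on the log2 scale (adjusted p = 0.313) against Scrambled and 0.10 (adjusted p = 0.741) against Control. Without Scrambled 2 it was 0.45 with an adjusted p of 0.0417, and without both Scrambled 2 and Control 3 the adjusted p was 0.0374. EIF2AK2, the kinase PKR, was at 137, 149 and 155 CPM in the Control libraries, 109, 159.8 and 136 in the Scrambled libraries, and 153, 141 and 163 in the CA2 shRNA libraries, from 2337 to 5292 counts. These groups overlapped too, and the log2 change was 0.18 (adjusted p = 0.391) against Scrambled and 0.05 (adjusted p = 0.847) against Control. Without Scrambled 2 the first was 0.34 (adjusted p = 0.00918) and without both libraries 0.34 (adjusted p = 0.0048).

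IFIH1, which detects long double-stranded RNA, was at 1.93, 2.00 and 2.02 CPM in the Control libraries, 1.64, 1.81 and 1.83 in the Scrambled libraries, and 2.45, 2.65 and 2.38 in the CA2 shRNA libraries, from 37 to 69 counts. The CA2 shRNA libraries lay above all 6 others without overlap. The log2 change of 0.49 against Scrambled had an adjusted p of 0.0925, and that of 0.32 against Control an adjusted p of 0.316. The oligoadenylate synthetases, which make the messenger that activates RNase L, did not pass: against Scrambled OAS1 had a log2 change of -0.01, OAS2 of -0.04 and OAS3 of 0.12 (adjusted p = 0.989, 0.87 and 0.127). OAS3 had the narrowest interval of these, from 0.01 to 0.23. DDX60, a helicase, had a log2 change of 0.14 (adjusted p = 0.399).

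Of the 5 transcription factors of the response, STAT2 and IRF1 rose in both comparisons and IRF3, IRF7 and IRF9 did not pass. STAT2, a subunit of the interferon-activated complex, was at 59.2, 54.1 and 54.0 CPM in the Control libraries, 66.0, 54.9 and 67.4 in the Scrambled libraries, and 74.0, 75 and 74.8 in the CA2 shRNA libraries, from 1109 to 2045 counts. The CA2 shRNA libraries lay close together above both controls, and Scrambled 2 lay with the Control libraries. STAT2 changed by 0.42 ± 0.0746 (SE) on the log2 scale against Control (adjusted p = 0.000671, called under all 18 alternatives) and by 0.25 ± 0.0741 against Scrambled (adjusted p = 0.0275). The second call was lost with upper-quartile factors (adjusted p = 0.0639), without Control 2 (0.0588), Scrambled 2 (0.0547) or CA2 shRNA 2 (0.104), and without Control 3 and Scrambled 2 together (0.0597). STAT2 had a log2 change of 0.17 in Scrambled against Control (unadjusted p = 0.0336).

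IRF1, a factor that drives antiviral genes and can be induced without interferon, was at 29.5, 33.1 and 29.3 CPM in the Control libraries, 33.4, 29.6 and 32.1 in the Scrambled libraries, and 39.9, 39.6 and 36.2 in the CA2 shRNA libraries, from 657 to 999 counts. No control library reached the lowest CA2 shRNA library. On the log2 scale the change was 0.28 ± 0.0769 (SE) against Scrambled (adjusted p = 0.0175) and 0.33 ± 0.0771 against Control (adjusted p = 0.00625). The call against Scrambled was lost without Scrambled 3 (adjusted p = 0.0571) or CA2 shRNA 2 (0.0869). IRF1 shares 1716 exonic bases with the antisense gene IRF1-AS1, which had at most 181 counts, and the strand setting of the counting is not given in the sources used here.

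Of the others, IRF7, the factor that amplifies interferon production, had a log2 change of 0.17 (adjusted p = 0.308) and 0.26 (adjusted p = 0.109), and IRF9, the DNA-binding partner of STAT2, one of 0.20 (adjusted p = 0.68) and 0.20 (adjusted p = 0.715), against Scrambled and Control respectively. Without Scrambled 2, IRF7 passed against Control (adjusted p = 0.0332). IRF3, which is activated by phosphorylation and not by more transcript, had a log2 change of -0.08 (adjusted p = 0.481) and -0.03 (adjusted p = 0.866).

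Of the IFIT family, proteins that bind foreign RNA ends and block their translation, IFIT2 rose. IFIT2 was at 2.81, 4.10 and 3.46 CPM in the Control libraries, 3.29, 2.92 and 3.62 in the Scrambled libraries, and 5.89, 5.55 and 4.90 in the CA2 shRNA libraries, from 67 to 134 counts. The CA2 shRNA libraries lay above every control library. IFIT2 changed by 0.73 ± 0.167 (SE) on the log2 scale against Scrambled (adjusted p = 0.00548, called under all 18 alternatives) and by 0.65 ± 0.167 against Control (adjusted p = 0.0118). The second call was lost without Control 1 (adjusted p = 0.0553) or CA2 shRNA 2 (0.0529). Some exonic bases of IFIT2 are shared with LIPA on the opposite strand (65 bases, up to 3198 counts for LIPA) and with an unnamed gene on the same strand (356 bases).

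The other 3 IFIT genes did not pass. IFIT1 had a log2 change of 0.25 (adjusted p = 0.303) against Scrambled and 0.45 (adjusted p = 0.0571) against Control, and it passed against Control with a minimum of 1 CPM in 3 libraries (0.0355) or without Scrambled 2 (0.0312). IFIT3 had a log2 change of 0.14 in both (adjusted p = 0.384 and 0.431), and IFIT5 one of -0.05 and -0.11 (adjusted p = 0.732 and 0.364).

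Among ISG15, the ubiquitin-like modifier that interferon induces, its ligase HERC5, the related HERC6 and its protease USP18, only USP18 passed. USP18, which removes ISG15 from proteins and also dampens the interferon receptor, was at 3.65, 4.44 and 4.40 CPM in the Control libraries, 4.26, 3.95 and 3.76 in the Scrambled libraries, and 5.69, 7.48 and 5.96 in the CA2 shRNA libraries, from 87 to 163 counts. CA2 shRNA 2 was the highest, and all 3 were above both controls. The log2 change was 0.67 ± 0.151 (SE) against Scrambled (adjusted p = 0.00461, called under all 18 alternatives) and 0.60 ± 0.150 against Control (adjusted p = 0.0102, lost without CA2 shRNA 2 with an adjusted p of 0.0739). USP18 has a near-identical copy, USP41, and how reads that fit both were counted is not given in the sources used here. ISG15 itself was at 11, 11.7 and 11.3 CPM in the Control libraries, 11.2, 10.7 and 10.1 in the Scrambled libraries, and 10.4, 13.5 and 12 in the CA2 shRNA libraries. Its groups overlapped, with log2 changes of 0.16 (adjusted p = 0.339) and 0.07 (adjusted p = 0.738). HERC5 had a log2 change of 0.13 and 0.08 (adjusted p = 0.494 and 0.725), and HERC6 one of 0.19 and 0.20 (adjusted p = 0.276 and 0.282), against Scrambled and Control. Without Control 3 and Scrambled 2 together, HERC6 passed in both (0.0455 and 0.0403).

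Of 6 other antiviral effectors SAMD9 rose against Scrambled and ISG20 against Control. SAMD9, a restriction factor of poxviruses, was at 7.81, 10.1 and 8.83 CPM in the Control libraries, 5.29, 8.09 and 7.58 in the Scrambled libraries, and 11, 9.59 and 12.8 in the CA2 shRNA libraries, from 119 to 349 counts. CA2 shRNA libraries lay above all Scrambled libraries and overlapped the Control libraries, and Scrambled 1 was the lowest of all. The log2 change was 0.67 ± 0.155 (SE) against Scrambled (adjusted p = 0.00637, called under all 18 alternatives) and 0.33 ± 0.152 against Control (adjusted p = 0.178). In Scrambled against Control it was -0.34 (unadjusted p = 0.0426, adjusted p = 0.9997).

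ISG20, an exonuclease that degrades viral RNA, was at 4.58, 5.71 and 5.25 CPM in the Control libraries, 6.09, 5.54 and 5.38 in the Scrambled libraries, and 8.04, 7.12 and 6.47 in the CA2 shRNA libraries, from 109 to 179 counts. All 3 CA2 shRNA libraries were above all controls. On the log2 scale the change was 0.47 ± 0.136 (SE) against Control (adjusted p = 0.0241) and 0.34 ± 0.134 against Scrambled (adjusted p = 0.0908). The call against Control was lost without Control 1 (adjusted p = 0.0975), Control 3 (0.0616), CA2 shRNA 1 (0.0908) or CA2 shRNA 2 (0.0738).

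The other 4 effectors did not pass. MX1, the dynamin-like GTPase that traps viral nucleocapsids, was at 22.6, 24.2 and 25.2 CPM in the Control libraries, 26.3, 23.2 and 22.8 in the Scrambled libraries, and 24.5, 22.4 and 26.5 in the CA2 shRNA libraries. These groups overlapped throughout, and the log2 change was 0.03 (95% interval -0.15 to 0.21) against Scrambled and 0.03 (-0.15 to 0.21) against Control. MX2 had a log2 change of 0.11 and 0.14 (adjusted p = 0.482 and 0.406) and BST2 one of 0.10 and 0.04 (adjusted p = 0.351 and 0.788). RSAD2, the enzyme viperin that makes a chain-terminating nucleotide, was at 0.966, 0.634 and 0.909 CPM in the Control libraries, 0.888, 0.369 and 1.12 in the Scrambled libraries, and 0.499, 0.543 and 0.548 in the CA2 shRNA libraries. Its log2 change of -0.57 (adjusted p = 0.369) against Scrambled and -0.67 (adjusted p = 0.312) against Control was the lowest of the 32, with intervals from -1.41 to 0.26 and from -1.50 to 0.16.

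Of the 6 other interferon-inducible proteins, IFI6 and IFI35 rose in both comparisons. IFI6, a small membrane protein that protects cells against flaviviruses, was at 11.2, 10.8 and 12.6 CPM in the Control libraries, 12.5, 12.6 and 10.6 in the Scrambled libraries, and 14.2, 17.0 and 16.5 in the CA2 shRNA libraries, from 221 to 451 counts. Its CA2 shRNA libraries lay above all controls. The log2 change was 0.42 ± 0.106 (SE) against Scrambled (adjusted p = 0.0102) and 0.46 ± 0.106 against Control (adjusted p = 0.00618). Against Scrambled the call was lost without Scrambled 3 (adjusted p = 0.0786) or CA2 shRNA 2 (0.064).

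IFI35 was at 27.3, 27.9 and 28.4 CPM in the Control libraries, 28.8, 28.0 and 29 in the Scrambled libraries, and 33.1, 34.6 and 33.4 in the CA2 shRNA libraries, from 571 to 967 counts. The 6 control libraries lay within a narrow band and all CA2 shRNA libraries above it. On the log2 scale the change was 0.23 ± 0.0674 (SE) against Scrambled (adjusted p = 0.0224) and 0.27 ± 0.0676 against Control (adjusted p = 0.00947). The first was lost with no filter on low counts (adjusted p = 0.0508), without Control 2 (0.0509), Scrambled 3 (0.0659) or CA2 shRNA 2 (0.0857), and the second without Control 2 (0.0545). IFI44 was at 0.966, 1.07 and 0.997 CPM in the Control libraries, 0.577, 1.11 and 0.913 in the Scrambled libraries, and 1.25, 1.21 and 1.75 in the CA2 shRNA libraries. Its log2 changes of 0.70 (adjusted p = 0.111) and 0.50 (adjusted p = 0.293) did not pass, although the CA2 shRNA libraries were above all others; without Scrambled 2 the first was 0.93 and passed (0.0489). IFI27 had a log2 change of -0.48 (adjusted p = 0.177) and 0.11 (adjusted p = 0.838), and XAF1, a pro-apoptotic protein, one of -0.05 (adjusted p = 0.891) and 0.12 (adjusted p = 0.755).

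The number of the 33 genes that passed moved with single libraries, as did the number among all genes. The share of 25% given above is for all 9 libraries. Counts below are of calls in either direction, though none of the 33 genes was called lower when single libraries were left out. Among all genes the calls higher then ran from 864 to 2357 against Scrambled and from 663 to 2030 against Control. Against Scrambled, where 8 of the 33 and 3348 of all genes passed, the counts were 5 and 2059 without Scrambled 3, 4 and 2288 without CA2 shRNA 2, 10 and 4011 without Scrambled 2, and 11 and 4289 without Control 3 and Scrambled 2 together. Against Control, where 8 and 2906 passed, they were 5 and 2052 without CA2 shRNA 2, 10 and 3662 without Scrambled 2, and 9 and 3213 without Control 3 and Scrambled 2 together. OASL, IFIT2, USP18 and SAMD9 passed against Scrambled under all 18 alternatives, and OASL, STAT2, IRF1 and IFI6 did so against Control.

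Transcripts of interferon itself were at the limit of detection. Over 9 interferon genes (IFNB1, IFNA1, IFNA2, IFNL1, IFNL2, IFNL3, IFNE, IFNK and IFNG) the Control libraries had 8, 2 and 9 counts in all, the Scrambled libraries 3, 5 and 8, and the CA2 shRNA libraries 2, 8 and 5. The highest count of a single gene was 6, for IFNK. These sums overlap between groups and are too low to show a difference. CXCL10, a chemokine induced by both interferon and sensor signalling, had 0 counts in all 6 control libraries and 0, 2 and 1 in CA2 shRNA.

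The other genes of the pathway were read from lists chosen with earlier results of these data known. Over all tested genes 8.02% rose and 8.88% fell against Scrambled, and 6.41% rose and 8.26% fell against Control. The counts of the lists below stand beside these shares. Of 19 tested further sensors, adaptors and kinases, 5 rose (26.3%) and 2 fell against Scrambled, and the same counts held against Control. Against Scrambled the rises were IKBKE, TLR3, CGAS, STING1 and TARBP2. Mean CPM in Control, Scrambled and CA2 shRNA was 24.0, 21.8 and 29.3 for CGAS and 37.6, 39.4 and 48.8 for STING1. The call of TARBP2 was lost without Scrambled 3 (adjusted p = 0.066) or CA2 shRNA 2 (0.0898). Differences of the pathway genes below are log2 changes. MYD88, the adaptor of most Toll-like receptors, was at 58.0, 63.6 and 62.3 CPM in the Control libraries, 59.8, 57.2 and 59.0 in the Scrambled libraries, and 35.2, 35.7 and 35.7 in the CA2 shRNA libraries. All 3 CA2 shRNA libraries lay far below the controls, and against Scrambled it fell by 0.72 on the log2 scale (adjusted p = 2.9e-07) and by 0.79 against Control (adjusted p = 9.5e-08). TRAF3, a ubiquitin ligase between sensors and interferon induction, fell by 0.44 (adjusted p = 3.5e-05) and 0.42 (adjusted p = 6.4e-05). IKBKE, a kinase that activates IRF3 and IRF7, was 0.60 higher (adjusted p = 8.9e-05) and 0.66 higher (adjusted p = 3.3e-05). TLR3, the endosomal receptor of double-stranded RNA, was 0.76 higher against Scrambled (adjusted p = 0.0304) and 0.65 against Control (adjusted p = 0.0688), and the first did not hold when Scrambled 1 (0.0672), Scrambled 3 (0.11) or CA2 shRNA 3 (0.181) was left out. Without Scrambled 2, TLR3 passed against Control at 0.68 (adjusted p = 0.0481).

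Of 17 tested interferons, receptors and signalling genes, 3 rose (17.65%) and 2 fell in both CA2 shRNA comparisons. Of all genes 8.02% rose and 8.88% fell against Scrambled, and 6.41% and 8.26% against Control. SOCS1, the feedback inhibitor of the JAK kinases, was at 3.87, 4.58 and 2.90 CPM in the Control libraries, 2.89, 3.88 and 3.25 in the Scrambled libraries, and 7.29, 7.42 and 5.56 in the CA2 shRNA libraries. Its CA2 shRNA libraries lay above all controls, with log2 changes of 1.0 (adjusted p = 0.000895) and 0.85 (adjusted p = 0.00355). SOCS3, a related inhibitor, rose by 0.35 (adjusted p = 0.00329) and 0.29 (adjusted p = 0.0139), the second lost without Control 1 (0.0513), Control 2 (0.109) or CA2 shRNA 2 (0.0876). IRF2, an antagonist of IRF1, rose by 0.32 (adjusted p = 0.00524) and 0.33 (adjusted p = 0.00445). JAK1, the kinase on all interferon receptors, fell by 0.36 (adjusted p = 0.000835) and 0.37 (adjusted p = 0.000709).

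Of 33 tested interferon-stimulated genes outside the 33 described here, 10 rose against Scrambled (30.3%, against 8.02% of all genes). Against Control 11 rose (33.3%, against 6.41% of all genes). None fell, against 8.88% and 8.26% of all genes. LAMP3, a lysosomal membrane protein, was 0.83 higher against Scrambled (adjusted p = 0.000178) and 0.54 against Control (adjusted p = 0.0065). HELZ2, a helicase coactivator, was 0.37 higher in both (adjusted p = 0.000175 and 0.000202). IFITM2, a membrane protein that blocks virus entry, was 0.35 and 0.34 higher (adjusted p = 0.00055 and 0.000764), and UBE2L6, the conjugating enzyme of ISG15, 0.35 and 0.29 higher (adjusted p = 0.0015 and 0.00719). The second call of UBE2L6 was lost without Control 2 (0.0601) or CA2 shRNA 2 (0.0666).

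Of 19 tested interferon-gamma targets and class I antigen presentation genes, 4 rose (21.05%, against 8.02% of all genes) and 1 fell against Scrambled. Against Control 5 rose (26.3%, against 6.41% of all genes) and 1 fell. The gene that fell was GBP1, a guanylate-binding protein, at 9.96, 10.9 and 10.5 CPM in the Control libraries, 10.7, 9.53 and 9.30 in the Scrambled libraries, and 6.14, 6.70 and 5.08 in the CA2 shRNA libraries. It fell by 0.73 (adjusted p = 0.000388) and 0.82 (adjusted p = 0.000128), with no overlap between CA2 shRNA and either control. Its relative GBP3 was 0.47 higher (adjusted p = 0.0102) and 0.52 higher (adjusted p = 0.00546), so that members of this family moved in opposite directions. B2M, the light chain of class I molecules, was 0.24 and 0.21 higher (adjusted p = 0.0141 and 0.0298). Against Scrambled the calls were lost without Scrambled 3 for GBP3 (0.0632), and without Scrambled 1 (0.0601), Scrambled 3 (0.0579) or CA2 shRNA 2 (0.0592) for B2M. Against Control B2M was lost without Control 1 (0.151) or CA2 shRNA 2 (0.112).

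Of 10 tested early targets of IRF3 and nuclear factor kappa B, 4 rose (40%) in each CA2 shRNA comparison and none fell. Of all genes 8.02% rose against Scrambled and 6.41% against Control. TNFAIP3, the inhibitor A20 that nuclear factor kappa B induces, was 1.01 and 0.99 higher (adjusted p = 2.7e-08 and 3.3e-08), and NFKBIA, another such inhibitor, 0.20 higher in both (adjusted p = 0.0243 and 0.0263). PMAIP1, a pro-apoptotic protein, was 0.43 higher in both (adjusted p = 0.0014 and 0.00159). CXCL1, a neutrophil chemokine, was 0.38 higher against Scrambled (adjusted p = 0.0161) and at 0.27 against Control (adjusted p = 0.0919). The call of CXCL1 was lost without Scrambled 3 (0.0575) or CA2 shRNA 2 (0.0904), while against Control it passed with a replicate block (0.0448) or without Scrambled 2 (0.0389), and without Control 3 and Scrambled 2 together (0.0206). NFKBIA was lost against Scrambled without Control 2 (0.0557), Scrambled 3 (0.0981), CA2 shRNA 2 (0.0999) or CA2 shRNA 3 (0.054), and against Control without Control 1 (0.123), Control 2 (0.0802), CA2 shRNA 2 (0.117) or CA2 shRNA 3 (0.0576). In all of these lists no gene passed in Scrambled against Control.

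**Figure D1:**
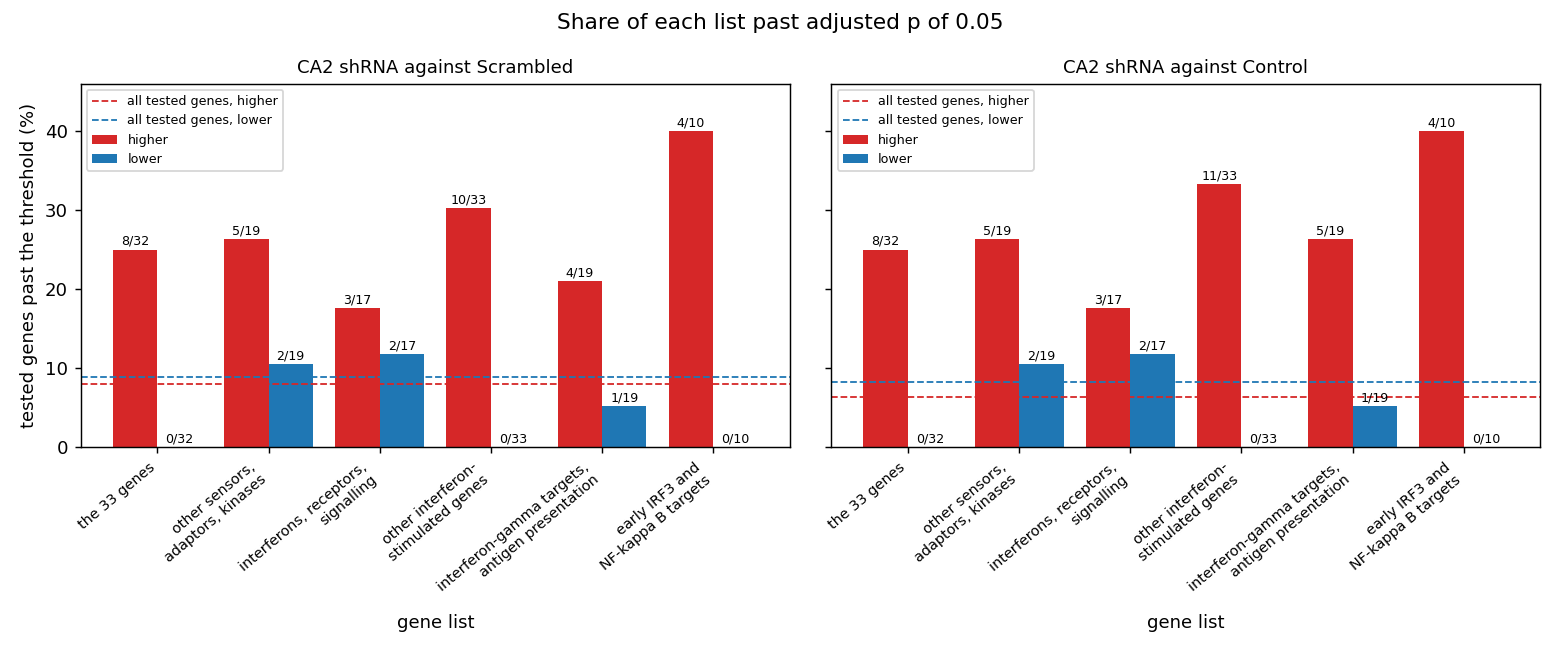
Share (percent) of the tested genes of each pathway list that rose or fell in CA2 shRNA against Scrambled and against Control, with the number of genes above each bar and a line for the share among all genes. The early targets of IRF3 and nuclear factor kappa B have the highest share of rises, 40% in both panels.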

How the data were processed

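The authors deposited, per library, a whole-number count, a CPM and an RPKM for each gene, per the file headers. Recomputing gave the deposited CPM from the count and the library total, and the deposited RPKM from CPM and exon length. Per the submitters' processing notes, bcl2fastq, STAR 2.5.1a and featureCounts 1.4.6-p5 (Subread) were run on GRCh38. The annotation release, strand setting, read layout and rule for multi-mapping reads were not given in the sources used here. Total RNA came from RNeasy Mini with QIAGEN FastSelect, which depletes ribosomal RNA, per the labels' protocols.

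The deposited counts entered edgeR 4.0.16 in R 4.3.3: filterByExpr by group (19812 genes left), TMM factors, and a robust quasi-likelihood F test over the 9 libraries with 1 term per group, leaving 6 residual degrees of freedom. The biological coefficient of variation was 7.94%. P-values were Benjamini-Hochberg adjusted over all genes, with a threshold of 0.05. Printed CPM are TMM-scaled, and intervals are 95% from the fit. With 3 libraries against 3, exact permutation p-values stop at 0.1, and none is given. The fit was tested on simulated data. No pair of libraries matched within sampling noise (chi-square per gene at least 3.38 over all pairs and 4.16 within a group), and none was counted as a duplicate. The 18 alternatives were scalings, filters, DESeq2 1.42.0, only the groups compared, a replicate block and libraries left out.

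The 33 genes and all lists were chosen with earlier results of these data known. Genes are given by library where they passed in a comparison, with RIGI, IFIH1 and EIF2AK2. From other lists up to 4 genes with the largest changes past the threshold against Scrambled are named, and from the further sensors all that passed it. Exonic bases were shared with another gene for 10 of the 33 genes. Some genes of the lists are not reported here by name.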

Additional observations from a re-analysis of the deposited data

How the results depend on the processing

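Over the alternatives no change of any of the 33 genes that had passed reversed its sign. Leaving out 1 library at a time gave 4 to 10 of the 33 genes past the threshold against Scrambled (8 with all libraries; 5 without Scrambled 3, 4 without CA2 shRNA 2), 5 to 10 against Control (8 with all; 5 without CA2 shRNA 2) and 0 in Scrambled against Control. Over all genes the same gave 2059 to 4011 calls against Scrambled (3348 with all), 1962 to 3662 against Control (2906 with all) and 0 to 1 in Scrambled against Control. That last comparison gave 7 genes with no filter on low counts and 1 with DESeq2, none of them among the 33. The cause of these shifts was not tested. OASL had 20 to 96 counts a library and IFIH1 37 to 69, and IFI44L, with 0 to 6, was too shallow to test.

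Replicate numbers are shared by the groups, and what they mark is not given in the sources used here. Of 9 same-numbered pairs 1 correlated above 0.1 in deviations from the group means (lowest -0.19, highest 0.10). Of 9 libraries 2 correlated best with their own number. These values gave no clear sign of pairing by number, but with 3 libraries in a group they cannot exclude it. With a replicate block 8 of the 33 genes and 3422 of all genes passed in CA2 shRNA against Scrambled, 8 and 2946 against Control, and 0 and 0 between the 2 controls. The block changed the call of CXCL1 against Control among the genes named.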
